A study of Mus musculus with 8 samples.

Results

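The miR-183, miR-96 and miR-182 guides are the 5′ arms of 3 hairpins that lie side by side in the mouse genome and form the sensory miRNA cluster. They were followed here as guide strands in the RISC of mouse brain, as RISC-bound small RNAs (R-sRNAs). The members were the reads whose miRNA name in the deposited table was mmu-miR-183-5p, mmu-miR-96-5p or mmu-miR-182-5p (the prefix for mouse is left out below where it is not needed), which gave 46 of 47204 read sequences and 3 of 895 miRNA names. Of the 46 sequences, 25 belonged to miR-182-5p, 13 to miR-96-5p and 8 to miR-183-5p. The 3 guides were picked because an earlier pass over these data found them lower in one genotype. Their levels in the 2 genotypes are therefore a description with no test, and tests were kept for measures that the choice did not use.

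The R-sRNAs came from brain, cortex and hippocampus combined, of 8 mice. All 8 carried the 5XFAD transgene (5XFADtg), which the Thy1 promoter drives in neurons and which makes amyloid build up in the brain. In 4 of the mice 1 copy of the autophagy gene Rubicon was intact (Rubicon+/-, het) and in 4 none was (Rubicon-/-, ko), and no mice without the transgene or with both Rubicon copies were in the table. By the study's methods the mice were female, of a mixed C57BL/6J and SJL background, and 6 or 8 months old. The account of this comparison in the study's main text names 6 months and only 3 het mice, where the labels and methods give 4. The age of each mouse is not given in the sources used here, and the genotypes rest on the labels. Argonaute proteins were captured with a GW182 peptide, which binds all 4 of them, before small RNAs were sequenced. Each library was taken to come from a different mouse, since the methods give 4 mice per genotype and the labels 4 replicates, though no mouse is named.

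Library depth ran from 509839 to 19878054 reads, and both libraries with more than 5000000 reads were ko (replicates 1 and 2). In these, genotype and great depth cannot be told apart. Ko replicate 3 stood apart from the others in the sequence of its miR-182-5p reads, and values without it are given with that result. Levels are given as CPM, which is how many of every 1000000 reads in a library were the one counted. The level of 3 reads, taken as the smallest one a library could show with some certainty, ranged from 0.151 to 5.79 CPM. The tissue label was checked with 5 miRNAs of neurons, among them miR-124-3p and miR-128-3p, whose summed level lay between 178727 and 279811 CPM in each library.

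An Argonaute protein holds a guide strand so that its seed, the bases near the 5′ end, pairs with target mRNAs, which are then repressed. The miR-183, miR-96 and miR-182 hairpins are cut from 1 primary transcript. They are best known from sensory cells, the photoreceptors of the eye, the hair cells of the ear and the olfactory neurons of the nose, and mutations in the seed of miR-96 cause hearing loss in mice and humans. In the cortex and hippocampus they are minor miRNAs.

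The mature guides, as listed by RefSeq for GRCm38.p6, are shown because the cluster differs so little in its seeds. The 7 bases from position 2 to 8 are in capitals.
miR-183-5p: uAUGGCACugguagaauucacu
miR-96-5p: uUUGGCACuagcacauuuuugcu
miR-182-5p: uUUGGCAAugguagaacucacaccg
All lie on the minus strand of chromosome 6. miR-183-5p spans chr6:30169711-30169732, miR-96-5p chr6:30169506-30169528 and miR-182-5p chr6:30165962-30165986. The hairpins of miR-183 and miR-96 are 116 bases apart, and that of miR-182 lies another 3453 bases away. None of the 3 hairpins overlaps another gene annotated in GENCODE M21, and the nearest annotated neighbours are Nrf1, 12460 bases to one side, and the noncoding RNA Rncr4, 3156 bases to the other.

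Positions are counted from 1 at the 5′ end of the guide. Within the first 8 bases miR-183-5p and miR-96-5p differ by A2U alone, miR-96-5p and miR-182-5p by C8A alone, and miR-183-5p and miR-182-5p by both. miR-96-5p and miR-182-5p thus share the 6mer seed UUGGCA (positions 2 to 7), while miR-183-5p carries AUGGCA. Over the whole guide, seed included, the likeness runs the other way. miR-183-5p and miR-182-5p were identical at 18 of 22 positions (81.8%), against 13 of 22 for miR-183-5p and miR-96-5p and 12 of 23 for miR-96-5p and miR-182-5p.

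mmu-miR-182-5p was the most abundant guide of the cluster. The level of mmu-miR-182-5p was 368.7, 374.8, 237.2 and 882.3 CPM in het replicates 1 to 4 and at 33.3, 18.5, 59.7 and 99.9 CPM in ko replicates 1 to 4. Het replicate 4 was the highest library and ko replicate 2 the lowest, and the genotypes did not overlap. The het mean of 465.8 ± 285 CPM was 8.81-fold the ko mean of 52.9 ± 35.7 CPM (mean ± SD, n = 4 each). The log2 difference, on log2(CPM + 1) like all differences of levels below, was -3.20 (SE 0.51). The added 1 makes this scale understate the change of miRNAs with few CPM. Each SE, here and for the other 2 guides, is from the limma fit of the contrast that chose the guides, so a difference set against its SE is no test.

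mmu-miR-96-5p, the guide whose seed mutations cause deafness, stood at 173.8, 316.4, 115.7 and 350.7 CPM in the het libraries. The ko libraries held far less of it, with 4.71, 6.13, 28.8 and 11.8 CPM. Again no ko library reached the lowest het library. The ko values rest on 37, 122, 67 and 12 reads, so the last of them, ko replicate 4, has a 95% Wilson interval from 6.73 to 20.6 CPM. The means were 239.1 ± 112 and 12.8 ± 11.1 CPM (n = 4 each), an 18.6-fold ratio that was 31.8-fold without ko replicate 3. The log2 difference was -4.29 (SE 0.53).

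mmu-miR-183-5p was the scarcest. The het libraries held 73.4, 61.2, 36.9 and 105.1 CPM and the ko libraries 1.91, 1.86, 21.9 and 17.6 CPM. The ko libraries fell into 2 deep ones near 2 CPM and 2 shallower ones near 20 CPM. The lowest het library was 1.68-fold the highest ko library, the narrowest margin of the 3 guides. The means were 69.1 ± 28.4 and 10.8 ± 10.5 CPM (n = 4 each), and the log2 difference was -3.09 (SE 0.69). It was -1.67 without the 2 deep libraries, where it was -2.40 for miR-182-5p and -3.49 for miR-96-5p.

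**Figure D1:**
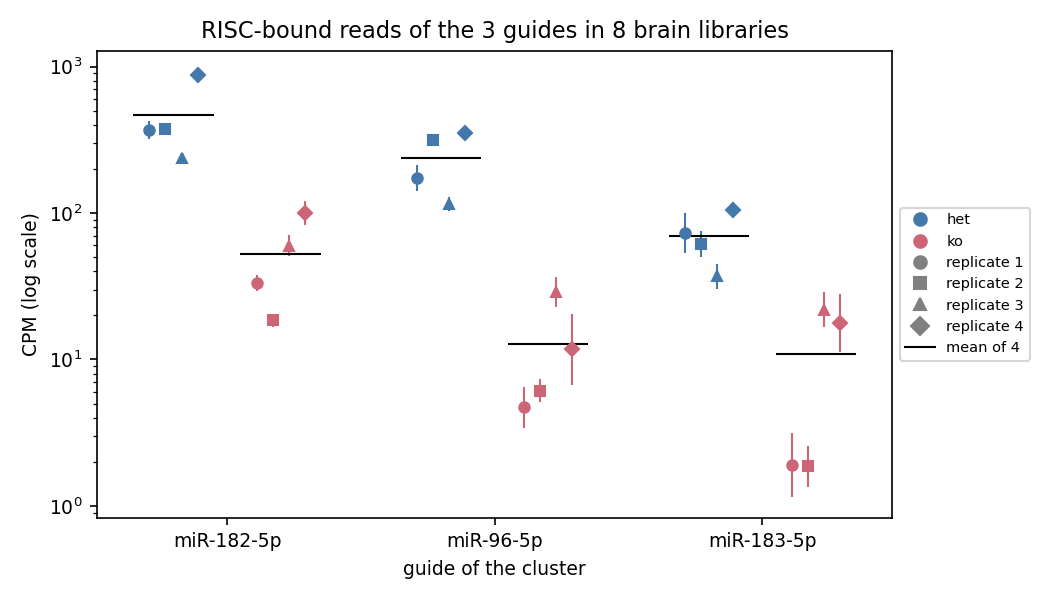
Level of each guide in CPM (log axis) in the 4 het and 4 ko libraries, with a marker shape per replicate number, 95% Wilson intervals for counting error, and a line at the mean of 4. For each guide the ko points lie below every het point, and for miR-183-5p the 2 deep ko libraries sit near 1.9 CPM.

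Summed over the 3 guides the cluster made up 0.0393% to 0.135% of the reads of a het library and 0.00266% to 0.0131% of a ko library. By mean level miR-182-5p ranked 158th of the 895 miRNA names in het and 328th in ko, miR-96-5p 216th and 448th, and miR-183-5p 314th and 459th. As background for these levels, 463 miRNAs had a mean of at least 10 CPM, and in 15 of them (3.24%) no ko library reached the lowest het value, while in 1 (0.216%) every ko library was above the highest het value. In limma 6 of the 463 (1.3%) were lower in ko at an adjusted p under 0.05, a count that holds the 3 guides because they were picked from this contrast, and is no test of them. None (0%) was higher in limma, edgeR or DESeq2, and at an unadjusted limma p under 0.05 2 were higher and 32 lower. The median log2 difference was -3.20 over the 3 guides and -0.09 over all 463 miRNAs. Centring each library on its median would raise every difference by 0.22.

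To compare the guides with each other, ratios were taken within each library, which does not use the genotypes. Together the 3 guides followed the order miR-182-5p, miR-96-5p, miR-183-5p in 7 of 8 libraries. miR-182-5p exceeded miR-96-5p in 8 of 8 libraries, with a mean log2 ratio of 1.53 ± 0.96 (SD, n = 8, exact sign-flip permutation p = 0.00781, adjusted 0.0117 over the 3 pairs). It exceeded miR-183-5p in 8 of 8 libraries, with a mean log2 ratio of 2.76 ± 0.78 (n = 8, exact sign-flip permutation p = 0.00781, adjusted 0.0117). miR-96-5p exceeded miR-183-5p in 7 of 8 libraries, with a mean log2 ratio of 1.23 ± 0.92 (n = 8, exact sign-flip permutation p = 0.0234, adjusted 0.0234). The exception was ko replicate 4, with 18 reads of miR-183-5p and 12 of miR-96-5p. The smallest p that 8 libraries allow is 0.00781. A ratio of different guides also holds any difference in how well they ligate and amplify, whose part in the result was not tested.

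The order of the 2 more abundant guides rested on all of their reads. With only the most abundant read of each guide the log2 ratio of miR-182-5p to miR-96-5p was -0.23 (n = 8, exact sign-flip permutation, adjusted p = 0.547). Both kept their place above miR-183-5p by that measure, with log2 ratios of 1.26 for miR-182-5p and 1.48 for miR-96-5p (n = 8, exact sign-flip permutation, adjusted p = 0.0234 each). The top read of miR-96-5p was at 146.9 ± 83.7 CPM in het and that of miR-182-5p at 97.7 ± 61.3 CPM (n = 4). In ko they were at 7.61 ± 6.42 and 8.55 ± 7.50 CPM (n = 4), and in both genotypes the difference lay within the spread.

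The make-up of the cluster had a larger SD among ko than among het libraries for each guide. miR-182-5p made up 59.1% ± 6.75 of the cluster reads in het and 71.2% ± 12.7 in ko (n = 4 each). For miR-96-5p the shares were 31.5% ± 7.15 and 17.5% ± 8.33, and for miR-183-5p 9.34% ± 1.85 and 11.3% ± 6.82. Being built from the levels that chose the guides, these shares were not tested between genotypes. The ranges overlapped for miR-182-5p (49.8% to 65.9% in het, 54.1% to 83.4% in ko) and for miR-183-5p (7.86% to 11.9% and 4.77% to 19.8%). For miR-96-5p the highest ko share, 26.1% in replicate 3, came within counting error of the lowest het share, 26.2% in replicate 4. Ko replicate 3 held the most miR-183-5p of all libraries at 19.8% (95% Wilson interval 15.4% to 25.1%).

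**Figure D2:**
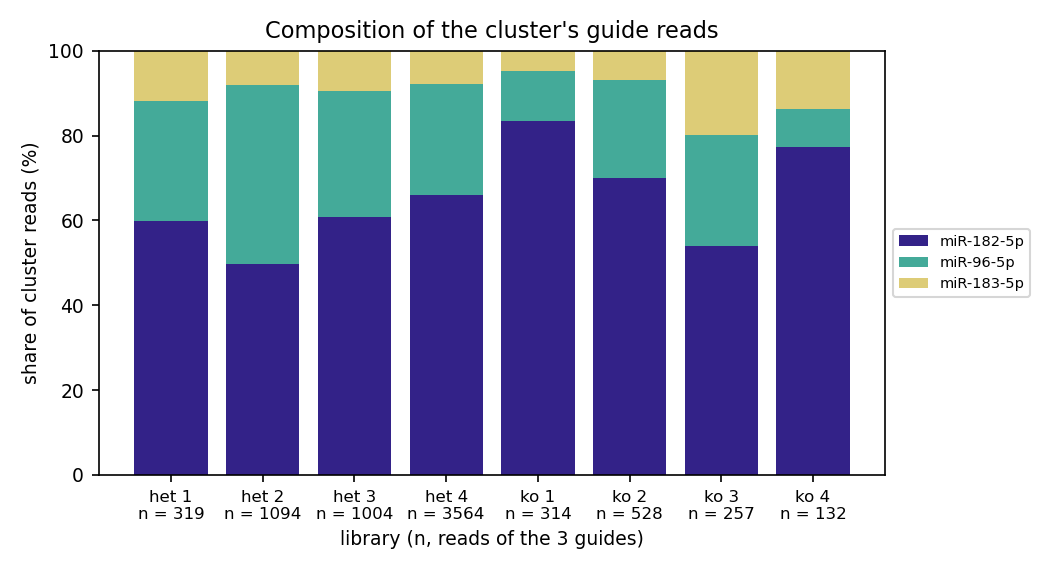
Share of the reads of the 3 guides (%) that each guide made up in every library, with the number of cluster reads below each bar. miR-182-5p is the largest part in all 8 bars, from 49.8% in het replicate 2 to 83.4% in ko replicate 1.

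The guides differed in how their ends were set. The most abundant read of each is shown as sequenced, with bases 2 to 8 in capitals and T for U, and the most abundant shifted read of miR-183-5p beside them.
miR-182-5p, 22 nt: tTTGGCAAtggtagaactcaca
miR-96-5p, 23 nt: tTTGGCACtagcacatttttgct
miR-183-5p, 22 nt: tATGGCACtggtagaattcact
miR-183-5p from base 2, 21 nt: aTGGCACTggtagaattcact
The 22 nt read of miR-182-5p ends 3 bases before the 25 nt form that RefSeq lists, while those of miR-96-5p and miR-183-5p match the listed form. In ko the 25 nt read of miR-182-5p, at 9.56 ± 7.71 CPM, lay beside the 22 nt read at 8.55 ± 7.50 CPM (n = 4), a difference within their spread.

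miR-182-5p had no dominant 3′ end. Its reads of 20, 21, 22, 23, 24 and 25 nt each made up between 11.96% and 19.7% of its reads (mean over 8 libraries), and the most abundant sequence held 18.4% ± 4.53. Of the 463 miRNAs only 6 had a lower share in their most abundant read, and the median was 43.2%. miR-96-5p and miR-183-5p had 1 main length each. Reads of 23 nt made up 62.2% ± 12.5 of miR-96-5p and reads of 22 nt 63.0% ± 9.44 of miR-183-5p (SD, n = 8). In het the read lengths of miR-182-5p varied little between mice, with 22.8% ± 1.69 at 22 nt and 18.2% ± 0.709 at 21 nt (n = 4).

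**Figure D3:**
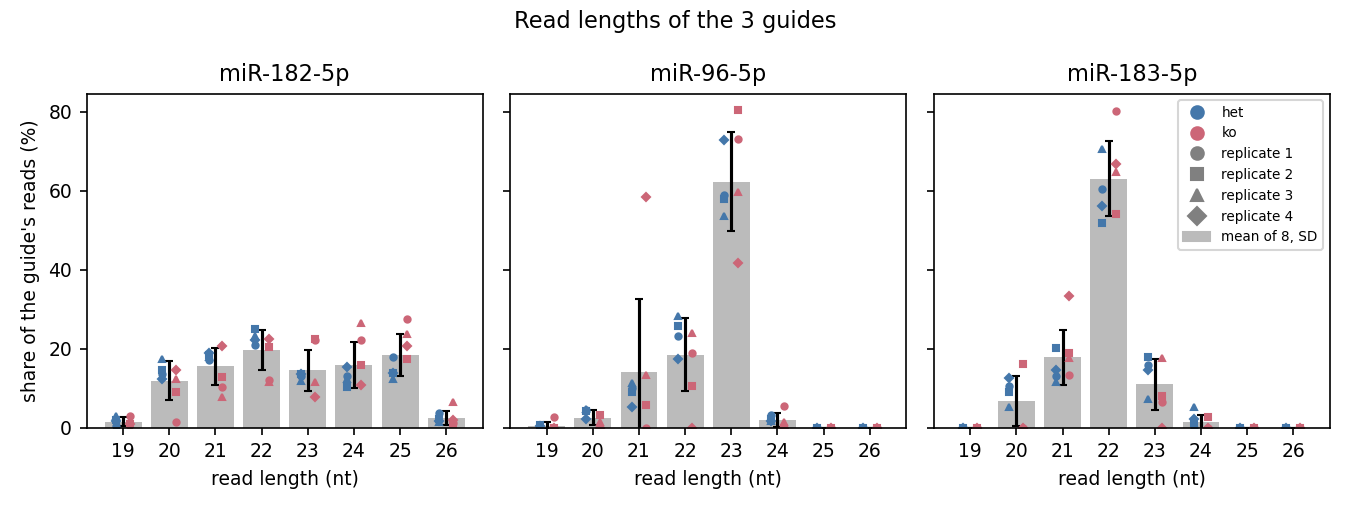
Share (%) of each guide's reads by read length in nt, with grey bars for the mean of 8 libraries, SD as error bars, and a point per library (het left, ko right of the bar's centre). miR-182-5p is spread over 20 to 25 nt, while miR-96-5p peaks at 23 nt and miR-183-5p at 22 nt.

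The 5′ end, which sets the seed, was fixed in miR-96-5p and miR-182-5p and less so in miR-183-5p. The main 6mer seed was carried by 99.3% ± 0.924 of miR-96-5p reads and 98.8% ± 1.14 of miR-182-5p reads, but by 81.2% ± 16.5 of miR-183-5p reads (n = 8), against a median of 96.7% over 463 miRNAs. All other miR-183-5p reads began at base 2 and had the seed UGGCAC. These shifted reads made up 10.5%, 10.1%, 12.6% and 10.4% of miR-183-5p reads in het replicates 1 to 4. In ko replicates 1 to 4 they made up 26.7%, 27.03%, 52.9% and 0%, of only 15, 37, 51 and 18 reads. The het libraries were close together and the ko libraries lay on both sides of them. The 0 of 18 reads in ko replicate 4 allows a share of up to 16.7% if taken as 3 reads, and of up to 17.6% by its Wilson interval. In ko replicate 3 the 95% Wilson interval of 39.5% to 65.9% lay above those of all 4 het libraries.

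The shift changes the toxicity score that the authors attach to a seed. This 6mer seed viability is the mean viability of 3 mouse cell lines given an siRNA with that seed, was measured in another experiment, and is low for seeds that kill cells by Death Induced by Survival gene Elimination (DISE). AUGGCA, the seed of miR-183-5p, scores 69.0, and UGGCAC, that of its shifted form, 40.0. UUGGCA, shared by miR-96-5p and miR-182-5p, scores 52.5, and their own shifted seeds UGGCAC and UGGCAA score 40.0 and 62.4. Weighted by reads, the cluster's score lay between 52.7 and 54.7 in the 8 libraries, below the 55.5 to 57.8 of all R-sRNAs in them.

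Whether the form of the guides differed between the genotypes was tested with 4 measures per guide, each taken within the reads of that guide. The measures are not fully independent of the level, since a rare form had to reach 8 reads over all libraries to be in the table and could do so more easily in het. They were the share with the main seed, the mean read length, the share in the most abundant read and the share that is an exact stretch of the annotated hairpin. An exact permutation test gave no adjusted p under 0.05 in the 12 comparisons (0 of 12), and 1 of the 12 fell under 0.05 before adjustment. It was the share of miR-96-5p reads that match the hairpin exactly, with a het mean of 95.97% ± 0.317 and a ko mean of 98.95% ± 1.31 (exact permutation p = 0.0286, adjusted 0.229, n = 4 each). The reads that did not match numbered 71 in het and 2 in ko, so that their sequences were in the table through het, and this p is no support for a difference. It is the smallest that 4 against 4 libraries allow, so no measure could have passed by itself after adjustment over 12. miR-182-5p reads had a mean length of 22.4 ± 0.184 nt among het and 22.96 ± 0.416 nt among ko mice (exact permutation p = 0.0571, adjusted 0.229, n = 4 each), a difference of 0.573 nt that was 0.348 nt without the C24T reads described below. Their main seed share was 97.95% ± 0.919 and 99.6% ± 0.542 (n = 4 each), where the reads with a shifted seed numbered 53 in het and 4 in ko, with the same limit. For miR-183-5p the main seed share was 89.1% ± 1.16 among het and 73.4% ± 21.6 among ko mice (exact permutation p = 0.143, adjusted 0.343, n = 4 each). This difference of -15.7 points was -6.98 without ko replicate 3 and -24.6 without ko replicate 4. All 8 sequences of miR-183-5p were exact stretches of the hairpin, so that this share was 100% in each library. For the other 8 comparisons the exact permutation p was between 0.0571 and 0.971. Rare forms are easily missed among few reads. In ko replicate 4 a level of 3 reads is 2.94% of miR-182-5p.

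The longest reads of miR-182-5p held a mismatch that was by far most frequent in 1 library. Relative to the mouse hairpin, 3 sequences of 24 to 26 nt carried C24T. Of the miR-182-5p reads that cover base 24, those with C24T made up 76.9% in ko replicate 3, which is 60 of 78 reads with a 95% Wilson interval from 66.4% to 84.9%. In the 3 other ko libraries they made up 4.55%, 6.35% and 3.03%, and in the het libraries 16.9%, 2.08%, 1.91% and 4.37%. Het replicate 1, with 11 such reads, had a 95% Wilson interval from 9.72% to 27.8%, which lay above those of the other het libraries. In the 24 nt sequence a T added behind base 23 cannot be told from C24T. In the other 2 sequences, which go on to match the hairpin after it, the share in ko replicate 3 was 66.7% (28 of 42 reads). Over 631 other miRNAs the share of reads that match a mouse hairpin exactly was 86.5% in ko replicate 3 and 86.1% to 88.4% over the 8 libraries. The C24T reads were at only 25.8 CPM in ko replicate 3, and this share could not show a part of that size. Without the C24T reads miR-182-5p fell from 59.7 to 33.9 CPM in ko replicate 3, and its log2 difference between genotypes was -3.39 in place of -3.20. Without ko replicate 3 altogether the log2 difference was -3.34 for miR-182-5p, -4.76 for miR-96-5p and -3.61 for miR-183-5p. The ratios of guides kept their order without it (n = 7, exact sign-flip permutation, adjusted p from 0.0234 to 0.0313). Whether the C24T reads, or others of ko replicate 3, came from a species other than mouse was not tested, and its values for miR-182-5p, shifted miR-183-5p and the miR-200 family described below hold with that limit.

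**Figure D4:**
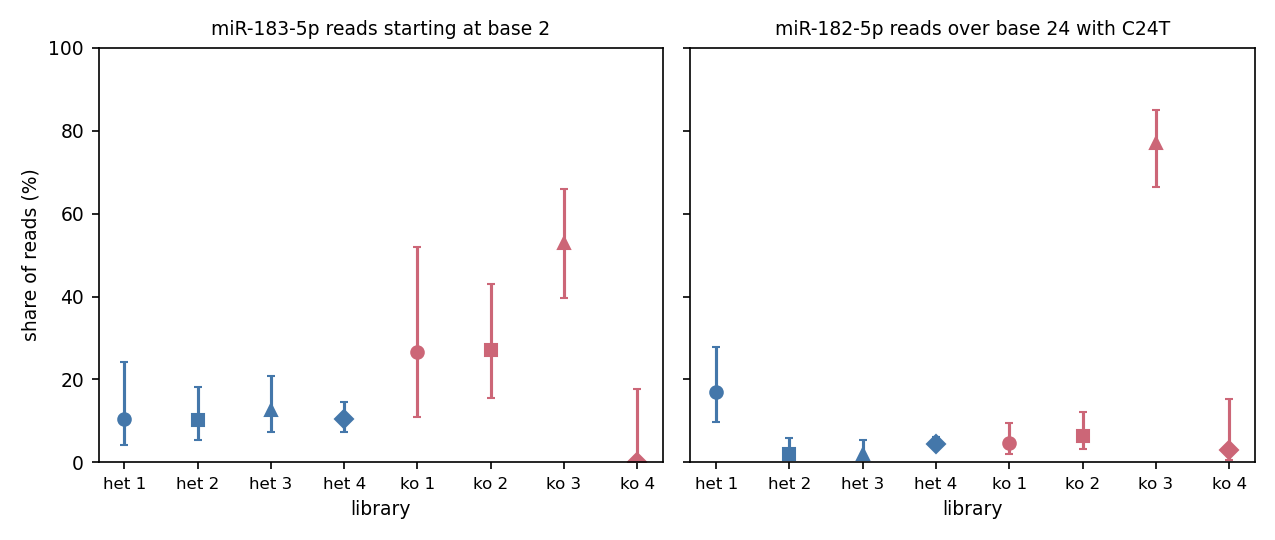
Left, share (%) of miR-183-5p reads that begin at base 2, and right, share (%) of miR-182-5p reads over base 24 that carry C24T, for each library with 95% Wilson intervals. Ko replicate 3 is the highest library in both panels, at 52.9% and 76.9%.

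Nearly all reads with the seed of miR-96-5p and miR-182-5p were their own. They made up 99.3% ± 1.42 of UUGGCA reads in het and 93.7% ± 5.13 in ko (n = 4 each), and the rest had no miRNA name or were reads named miR-34a-5p whose 5′ end gave them this seed. No other miRNA in the table had a main read with either seed. For AUGGCA, miR-183-5p supplied 90.2% ± 5.20 of reads in het and 47.5% ± 27.2 in ko (n = 4 each), and reads with no miRNA name supplied most of the remainder, at 6.44 ± 4.99 and 4.02 ± 1.80 CPM. The shifted seed UGGCAC was also supplied by 3 sequences named miR-29b-3p, at a mean of 5.20 CPM over the 8 libraries against 5.26 CPM from miR-183-5p.

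The miRNAs whose levels followed the cluster most closely over the 8 libraries were of the miR-200 family, which is typical of epithelia and of the olfactory system. By the Pearson correlation of log2(CPM + 1), miR-182-5p was most like miR-200a-3p (0.99), miR-200b-3p (0.96), miR-429-3p (0.95), miR-200b-5p (0.91) and miR-503-5p (0.82). miR-96-5p was most like miR-200a-3p (0.96), miR-200b-3p (0.93), miR-429-3p (0.93), miR-200b-5p (0.91) and miR-188-5p (0.91). miR-183-5p was most like miR-200b-3p (0.98), miR-200a-3p (0.96), miR-200b-5p (0.94), miR-141-3p (0.93) and miR-200c-3p (0.90). Within the cluster the correlations were 0.94 to 0.95. These points share the split into genotypes and the depth of the libraries. For deviations from the genotype means the correlation with miR-200a-3p was 0.94 for miR-182-5p, 0.71 for miR-96-5p and 0.92 for miR-183-5p, and among the guides it ran from 0.68 to 0.85. miR-429-3p followed miR-96-5p less within genotypes (0.30).

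miRNAs of cell types that a brain dissection could hold were set beside the cluster. Of 5 miR-200 family miRNAs 3 were lower in ko, miR-429-3p, miR-200a-3p and miR-200b-3p (limma adjusted p from 0.000127 to 0.0313), and they are the other calls among the 463. The median log2 difference of the 5 was -3.80, beside -0.09 over all miRNAs. The family was listed here with its fall in these data already known. Their summed level ranged from 2177 to 8424 CPM in het and from 163.2 to 1718 CPM in ko. The other two, miR-141-3p and miR-200c-3p, had log2 differences of -3.94 and -2.86 (limma adjusted p = 0.495 and 0.746). These sizes depended on the method, being -1.81 and -1.22 in edgeR and -1.77 and -1.17 in DESeq2. Without the 2 deep libraries they were -1.91 and -0.49. In ko replicate 3 the sum of the family was the highest of the ko libraries, carried by miR-200c-3p at 823.2 CPM and miR-141-3p at 418.5 CPM, while miR-200a-3p and miR-429-3p were higher in ko replicate 4. Without ko replicate 3 all 5 passed, with -5.32 for miR-141-3p and -4.20 for miR-200c-3p (limma adjusted p = 0.000254 and 0.0303). Without ko replicate 2 the difference of miR-200c-3p was -1.93. miR-200b-3p did not pass without het replicate 1 or 4 or ko replicate 1 or 2 (limma adjusted p from 0.0650 to 0.0899), nor in edgeR (adjusted p = 0.0898). Without the 2 deep libraries it was at -1.75 (limma adjusted p = 0.217), so that edgeR and the fit without these libraries each called 2 of the 5. The part of the cells that carry this family in the levels of the cluster was not tested, and fewer cells of a type and less RNA per cell cannot be told apart in bulk tissue.

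No miRNA of the other lists passed. Of 20 tested in them 0 passed in limma, edgeR or DESeq2, while 4 had an unadjusted p under 0.05 in limma and 1 in each of the others. Over all 463 miRNAs 34 were under that threshold in limma, and no such count is given for edgeR and DESeq2. The median log2 difference of the 20 was -0.15, beside -0.09 over all miRNAs. The choroid plexus and ciliated cell list (miR-204-5p, miR-211-5p, miR-449a-5p, miR-34b-5p and miR-34c-5p) summed to 3429 to 5458 CPM in het and 2815 to 4852 CPM in ko, most of it miR-204-5p. In this list miR-211-5p had a log2 difference of 2.88 and miR-34c-5p one of -0.67 (limma adjusted p = 0.266 and 0.529). Those of miR-34b-5p, miR-449a-5p and miR-204-5p were -0.80, -0.41 and -0.13 (limma adjusted p = 0.755, 0.975 and 0.975). miR-211-5p was at 0, 0, 9.71 and 12.4 CPM in het and at 43.6, 18.9, 47.7 and 8.82 CPM in ko. For the endocrine list (miR-7a-5p, miR-7b-5p and miR-375-3p) the ranges were 318.4 to 671.3 and 295.9 to 556.6 CPM. The surface epithelium miRNAs miR-205-5p and miR-203-3p together were at 71.4 to 131.4 CPM in het and 62.3 to 92.1 CPM in ko, and miR-205-5p was below the filter. The 4 listed blood cell miRNAs, miR-451a, miR-144-3p, miR-142a-3p and miR-223-3p, summed to 2311 to 3774 CPM in het and 1040 to 2755 CPM in ko. The log2 differences of these 4 were all negative, with a median of -0.69, and that of miR-451a was -0.86 (limma adjusted p = 0.593). Their part in the levels of the cluster was not tested. Of the 5 neuronal miRNAs miR-138-5p had a log2 difference of -0.61 (limma adjusted p = 0.529) and miR-124-3p one of -0.13. Those of miR-9-5p, miR-128-3p and miR-132-3p were 0.41, 0.33 and 0.17, and the median of this list was 0.17. The list summed to 178727 to 219720 CPM in het and 182484 to 279811 CPM in ko. The endothelial arms miR-126a-3p and miR-126a-5p summed to 6038 to 11057 CPM in het and 6112 to 11931 CPM in ko.

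**Figure D5:**
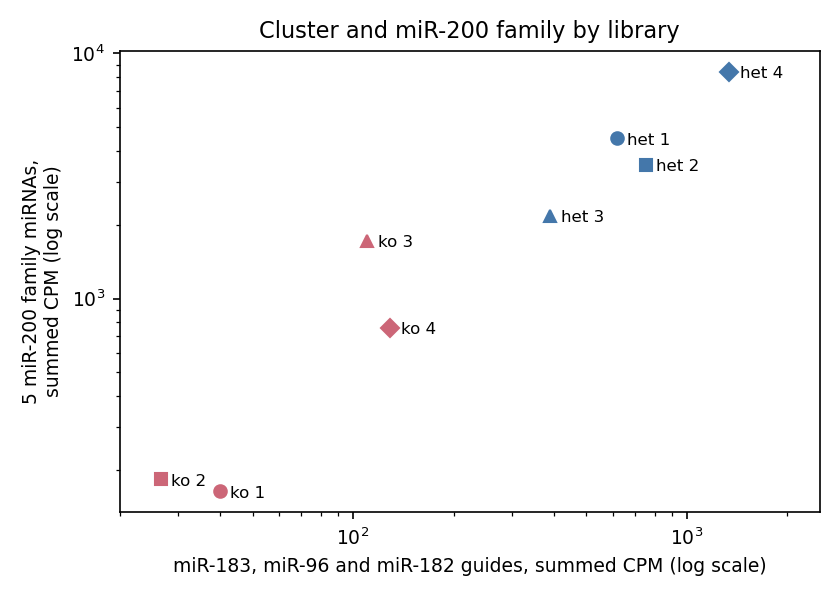
Summed CPM of the 3 guides (horizontal, log axis) and of 5 miR-200 family miRNAs (vertical, log axis), with a point per library. Het replicate 4 is highest on both axes, the deep ko replicates 1 and 2 are lowest on both, and ko replicate 3 has more of the family, 1718 CPM, than ko replicate 4.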

How the data were processed

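RISC-bound small RNAs of 8 brain libraries were analysed (4 het, 4 ko, groups and replicate numbers from the sample titles). Per the study's methods and the submitters' notes, reads were trimmed (Trim Galore), counted by distinct sequence, cleared of rare and artificial sequences and matched by BLAST to mouse small RNAs in SPOROS. The deposited values are CPM, scaled by the authors to 1000000 reads per library. The deposited viability score of each seed came from the authors' screen of 3 mouse cell lines and can exceed 100 (highest 108.5). Versions and the genome build are not given in the sources used here. No sequence in the table has fewer than 8 reads in all, a limit that weighs most on rare forms in the shallow libraries.

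At a tolerance of 0.001 CPM 99.9% to 100% of the values of a library were whole multiples of 1 read, which gave depths from 509839 to 19878054 reads. Wilson intervals and the level of 3 reads cover counting error only, as reads had no molecular identifiers. CPM was summed by miRNA name and compared with limma 3.58.1 (robust empirical Bayes with an intensity trend, Benjamini-Hochberg) in R 4.3.3 on log2(CPM + 1) for means of at least 10 CPM. edgeR 4.0.16 and DESeq2 1.42.0 ran on the recovered reads as alternatives. Isoform measures were compared by exact two-sided permutation over 70 splits and ratios by exact two-sided sign flips, with Benjamini-Hochberg adjustment over 12 and 3. The fits were tested on simulated data. Reads were placed on RefSeq hairpins (GRCm38.p6), and all 3 hairpins and guides matched by name. Python 3.11.15, numpy 2.4.6, scipy 1.17.1, pandas 2.3.3 and matplotlib 3.10.9 were used.

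The guides, lists and tests were chosen with earlier results of these data known. Named were the guides, their other arms, the 5 miRNAs most like each, marker lists, other carriers of the seeds and, of the reads, the most abundant ones. miR-486a-5p and miR-486b-5p of the blood cell list are not in the table under those names. The C24T reads were singled out after their values were seen.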

Additional observations from a re-analysis of the deposited data

Results flagged for a closer look

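Dixon's test at the 95% level, which sets the distance of an extreme value from its neighbour against the spread of all 4 values, picked out the following libraries. It was run on 44 groups of 4 libraries, of which 6 had such a library, while chance gives about 2.2. Both groups of the C24T share are among these 6 and were singled out after their values were seen, so this count is no test against chance. The share of miR-182-5p reads with C24T stood apart in ko replicate 3 (76.9%, the next ko library having 6.35%) and in het replicate 1 (16.9%, the next having 4.37%). Het replicate 3 had the lowest main seed share of miR-183-5p in het, 87.4% against 89.5%, and the longest mean read of it, 22.0 against 21.8 nt. In ko replicate 1 the main seed share of miR-96-5p was 97.3%, where the other ko libraries were at 100%, a difference of 1 in 37 reads. The passenger strand miR-183-3p stood at 7.13 CPM in het replicate 4 against 0.776 CPM for the next het library.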

How the results depend on the processing

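Every alternative kept the log2 difference of each guide negative. Leaving out 1 library gave -3.59 to -2.80 for miR-182-5p, -4.76 to -3.97 for miR-96-5p and -3.61 to -2.61 for miR-183-5p, and only miR-183-5p moved by more than the spread between replicates, to -1.67 without the libraries over 5000000 reads. The count of miRNAs lower in ko was 6, and 4 to 9 with 1 library left out. The sources used here do not say whether same-numbered libraries share more than a number. Over miRNAs their deviations correlated at 0.04, 0.29, -0.18 and 0.25, and not every library correlated best with its own number. With the replicate number as a block the count was 10, and the isoform measures gave adjusted p of at least 0.375, where 4 pairs allow no unadjusted p below 0.125.

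The ratios of guides kept their direction in each genotype alone, where 4 libraries cannot reach the threshold: log2 0.92, 2.67 and 1.75 in het (adjusted p = 0.125 each, exact sign flips) and 2.14, 2.85 and 0.71 in ko (0.188, 0.188 and 0.375), for miR-182-5p over miR-96-5p, miR-182-5p over miR-183-5p and miR-96-5p over miR-183-5p. The last was 1.13 (0.0938) without the deep libraries. Only the ratio of miR-182-5p to miR-96-5p changed sign, to -0.23 with the most abundant reads alone, since that read holds a smaller part of miR-182-5p. No isoform measure passed under any alternative, and those that changed sign had no call to lose. Read length of miR-183-5p went from -0.04 nt to 0.00754 with sequences of at least 1 CPM and ranged from -0.106 to 0.0200 with 1 library left out. That of miR-96-5p ranged from -0.15 to 0.16 nt with 1 library left out and was -0.33 nt without the deep libraries. The share in the most abundant read of miR-96-5p went from 4.35 points to -8.64 without the deep libraries and ranged from -1.21 to 11.7, and that of miR-183-5p from -11.3 to 3.70, with -12.0 without the deep libraries. The exact share of miR-182-5p went from -8.997 points to 0.91 without C24T reads (added once the data had been seen) and ranged from -13.0 to 0.68 with 1 library left out, the highest without ko replicate 3, and was -21.1 without the deep libraries. The main seed share of miR-96-5p ranged from -0.10 to 0.80 points, and with sequences of at least 1 CPM it was equal in all libraries and gave no value. The forms of the guides rest on the fewest reads in ko, where a library held 15 to 51 reads of miR-183-5p and as few as 12 of miR-96-5p. Without C24T reads the share in the most abundant read of miR-182-5p went from -5.15 points to -3.12.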

Other observations

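The other arms of the 3 hairpins, the passenger strands that are mostly discarded when the guide is loaded, were scarce. Over the 8 libraries miR-182-3p had 8 reads beside 4569 of its guide (0.175%, 95% Wilson interval 0.0886% to 0.345%), and miR-96-3p 9 beside 2020 (0.444%, 0.234% to 0.841%). miR-183-3p had 45 reads beside 623 (6.74%, 5.07% to 8.90%). By genotype, with libraries pooled and so no test, miR-183-3p was 22 reads in het (4.20%) and 23 in ko (15.97%). Over single libraries its level overlapped between the genotypes, with a het mean of 2.15 ± 3.34 CPM, a ko mean of 0.733 ± 0.599 CPM (n = 4 each), and 0 reads in 2 of the 8 libraries. In het replicates 1 to 4 the share was 0%, 1.11%, 2.06% and 6.35%, and in ko replicates 1 to 4 it was 42.3%, 22.9%, 0% and 5.26%. Of the 22 het reads 19 came from replicate 4. Of the 23 ko reads 11 came from each of the deep replicates 1 and 2, and the part of depth in the pooled difference was not tested.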
